A study of Mus musculus with 4 samples.

Results

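The genes described here are 40 genes of glycolysis, sugar and lactate transport and the hypoxia-inducible factor (HIF) pathway, chosen by name and not by their values. The array carried a probe set for 36 of them, out of 19505 genes in all, and 4 (Gpi1, Eno1, Pfkfb1 and Pfkfb2) had no listed probe set and are not analysed here. They were measured in macrophages sorted from hearts of C57BL/6N mice, aged 15 to 16 weeks, that had undergone transverse aortic constriction (TAC), an operation that narrows the aortic arch so that the heart pumps against raised pressure. Cells from 6 hearts were mixed and separated by a cell sorter into 4 populations, and each population gave 1 library on 1 Clariom S mouse array. The populations are called Ccrl2, Trem2, CD163 and CD74 by their titles, all 4 come from mice with TAC described as wild type or Ctrl-TAC, and no sham-operated group is part of the comparison. The labels differ on the time after surgery, 8 weeks in the source names and 1 week in the growth protocol, and on 2 surface markers, since the library titled CD74 has CD9 as its source name and the sort description has Lyve1 where a title has CD163. With 1 pooled library per population there is no replicate, so every difference below is a difference between 2 libraries, with no error and no test.

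Glycolysis splits glucose into pyruvate in the cytosol. Glucose enters through transporters of the Slc2a family, hexokinases trap it as glucose phosphate, phosphofructokinase commits it to breakdown, and lactate dehydrogenase turns pyruvate into lactate, which leaves through Slc16a3. In macrophages, inflammatory activation is known to raise this flux. HIF is a dimer of an oxygen-labile alpha subunit (Hif1a or Epas1) and the stable subunit Arnt. Prolyl hydroxylases of the Egln family mark the alpha subunit for destruction through Vhl when oxygen is present, so the transcript level of Hif1a is not a measure of its protein. Genes of glucose uptake and glycolysis are known HIF targets.

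Values are the deposited log2 levels. A value counted as above background when it exceeded the 95th percentile of 1500 chemosensory receptor and keratin-associated protein genes in the same library, called the ceiling below, which was 5.67 in Ccrl2, 5.51 in Trem2, 6.28 in CD163 and 6.53 in CD74. Above it lay 7454, 8144, 4984 and 3621 genes in the same order, and 25, 31, 13 and 9 of the 36 pathway genes. Of the 36, 31 were above the ceiling of at least 1 library and 5 (Slc16a1, Aldoc, Ldhb, Pdk3 and Pdk4) were below it in every library.

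The labelled cell type was checked against marker lists. All 9 macrophage markers were above the ceiling in Ccrl2, Trem2 and CD163, with medians of 17.15, 17.01 and 16.94. In the library titled CD74, 7 of the 9 were above it, the median was 8.12, and the value of Csf1r, which encodes the M-CSF receptor, was 9.40 against 18.60 or more in the others. The same library had 11 of 13 T and NK cell markers above its ceiling, led by Gzma at 13.01, against 9 in Trem2, 1 in CD163 and 0 in Ccrl2. The Trem2 library had 8 of 9 neutrophil markers above its ceiling, against 4 in Ccrl2, 4 in CD74 and 1 in CD163. The log2 of the summed neutrophil marker levels was 17.16 in Trem2, 9.99 in Ccrl2, 9.77 in CD74 and 8.78 in CD163. Of 7 fibroblast markers, 6 were above the ceiling in Ccrl2, 6 in Trem2, 2 in CD163 and 2 in CD74. Their medians were 8.13, 7.08, 6.08 and 6.37 in the same order. Of 7 B cell markers, 6 were above the ceiling in Ccrl2, 7 in Trem2, 2 in CD163 and 5 in CD74. Results that rest on the Ccrl2, Trem2 or CD74 library are given with these values in view. The part of other cells in them was not tested. In mixed RNA of this kind, more cells of a type and more RNA per cell cannot be told apart.

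**Figure D1:**
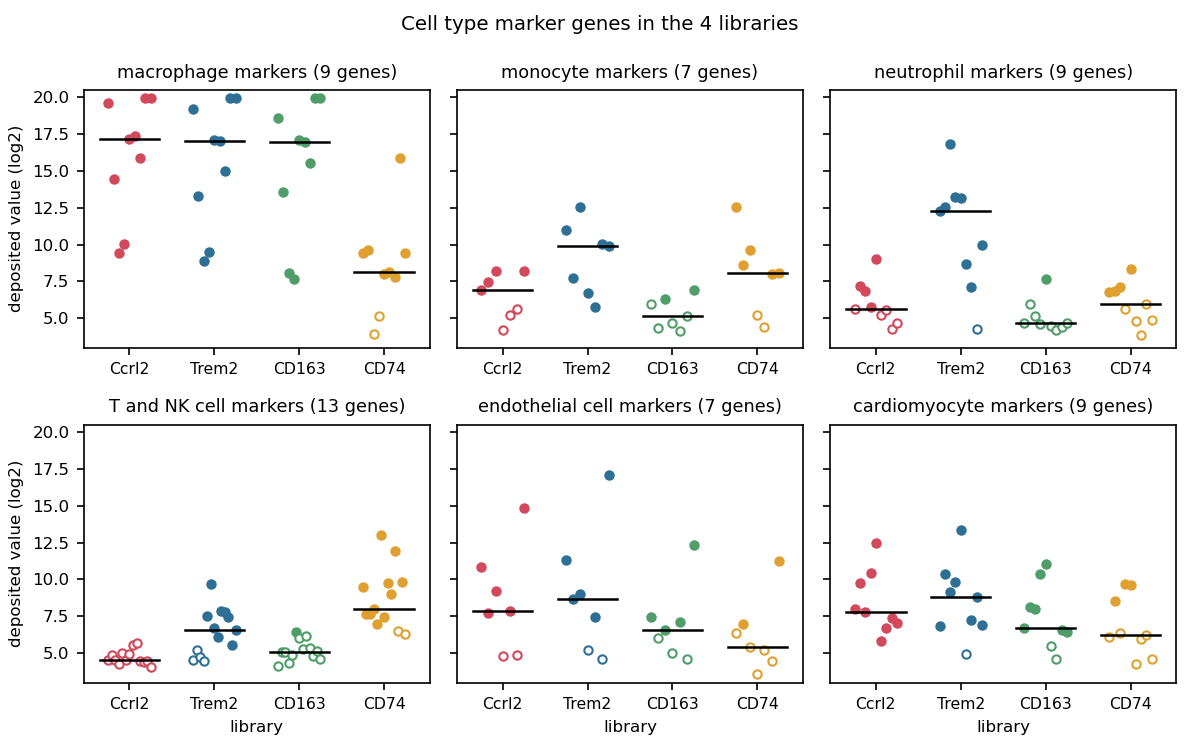
Deposited log2 values of marker genes of 6 cell types in the 4 libraries (1 point per gene, open where the value is not above that library's ceiling, black line at the median). The macrophage medians are 17.15, 17.01 and 16.94 in Ccrl2, Trem2 and CD163 and 8.12 in CD74, and the neutrophil median is 12.29 in Trem2 against 5.98 or less in the other libraries.

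Most of the measured pathway genes had their highest value in the Trem2 library and none had it in the CD74 library. Of the 31 genes above a ceiling, 20 were highest in Trem2, where 38.5% of all 9346 measured genes were highest. Among these pathway genes, Slc2a3, Slc2a6, Pdk1, Egln3, Ddit4 and Ankrd37 were above a ceiling in Trem2 alone, which had the lowest ceiling. They were measured only through the library where they are highest, so the count is read only beside the share of all genes. Of the 31, another 6 were highest in Ccrl2 (31.5% of all genes), 4 in CD163 (14.8%) and 0 in CD74 (14.0%), and Epas1 was tied between Ccrl2 and Trem2. After quantile normalization, which gives every library the same distribution of values, these counts were 16, 7, 6 and 2, against 24.0%, 23.5%, 24.0% and 28.0% of all genes. Without the CD74 library, 20 of 31 were highest in Trem2, where 44.5% of all genes then were. Without the Trem2 library, 18 of the 25 genes then measured were highest in Ccrl2, where 62.5% of all genes were. The lowest value fell in CD74 for 14 of the 31 genes (47.8% of all genes), in CD163 for 12 (28.3%), in Ccrl2 for 5 (12.4%) and in Trem2 for 0 (10.8%).

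**Figure D2:**
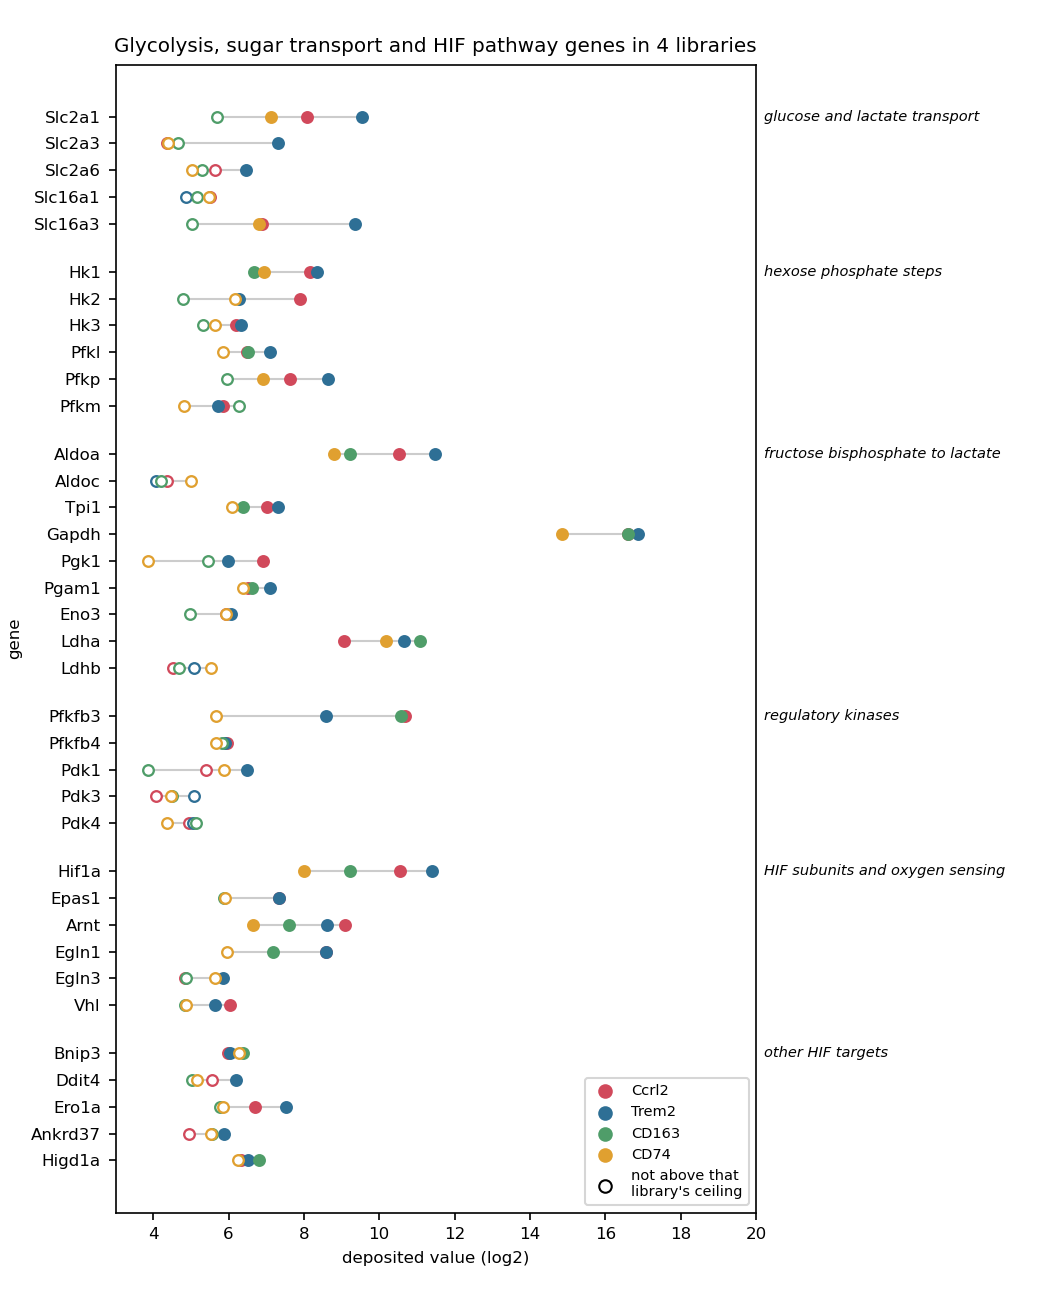
Deposited log2 values of the 36 genes, 1 row per gene and 1 point per library, grouped by role (open points are not above that library's ceiling). Slc2a1, Slc2a3 and Slc16a3 stand out by their Trem2 point at 9.55, 7.30 and 9.37, Pfkfb3 by its 2 points at 10.69 and 10.57 in Ccrl2 and CD163, and Ldha by having its lowest point, 9.06, in Ccrl2.

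Among the transporters, the Trem2 library carried the highest level of every one that was above a ceiling. The filter favours this outcome, since Slc2a3 and Slc2a6 were above a ceiling in Trem2 alone. Slc16a1, whose lowest value of 4.88 was in Trem2, was below every ceiling and is not counted. Slc2a1, the widely expressed glucose transporter GLUT1, had 9.55 in Trem2, 8.08 in Ccrl2, 7.14 in CD74 and 5.69 in CD163 (below the ceiling there). Its Trem2 level was thus 2.77-fold that in Ccrl2, 5.31-fold that in CD74 and at least 9.65-fold that in CD163. After quantile normalization the difference from CD74 was 0.88 log2 units, under 2-fold. Slc16a3, the monocarboxylate transporter MCT4 that exports lactate, had 9.37 in Trem2, 6.90 in Ccrl2, 6.81 in CD74 and 5.03 in CD163 (not above its ceiling). The Trem2 level was 5.54-fold that in Ccrl2, and only 0.809% of the 8773 genes tested between these 2 libraries had a larger deficit in Ccrl2. Slc2a3, the high-affinity glucose transporter GLUT3, was above background in Trem2 alone, at 7.30, with 4.38 in Ccrl2, 4.66 in CD163 and 4.39 in CD74. That is an excess of at least 3.10-fold over Ccrl2 and at least 2.03-fold over CD163, and the CD74 ceiling of 6.53 leaves no 2-fold difference shown against CD74. After quantile normalization none is shown against CD163 either. Slc2a6, a lysosomal hexose transporter of inflammatory macrophages, was likewise above background in Trem2 only, with 6.46, against 5.63 in Ccrl2, 5.29 in CD163 and 5.03 in CD74. Slc16a1, the monocarboxylate transporter MCT1, lay between 4.88 and 5.52 and was below all 4 ceilings.

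Markers of several other cell types were also high in the Trem2 library. Retnlg, a resistin-like gene of neutrophils, had 16.81 in Trem2, 6.83 in Ccrl2, 5.17 in CD163 and 7.15 in CD74. Lcn2, a granule protein, had 13.23 in Trem2 and 5.76 or less elsewhere, and Csf3r, the receptor for granulocyte colony-stimulating factor, had 13.16 in Trem2 and 9.03 in Ccrl2. All 7 monocyte and all 7 B cell markers were above the Trem2 ceiling, with medians of 9.89 and 8.46, against 6.90 and 6.88 in Ccrl2, 5.18 and 4.89 in CD163 and 8.04 and 6.65 in CD74. Plac8, a monocyte gene, had 12.52 in Trem2, 9.65 in CD74, 8.22 in Ccrl2 and 6.30 in CD163. Ly6c2, another monocyte gene, was higher in CD74 (12.55) than in Trem2 (10.98), and so was Ccr2. Of the 7 monocyte markers, 3 were called higher in Trem2 than in CD74 and 1 lower. After quantile normalization these counts were 0 and 2. For the 7 B cell markers they went from 5 and 0 to 1 and 1. The part of these cells' RNA in the transporter values was not tested.

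The hexose phosphate steps did not share 1 pattern. Hk2, the inducible hexokinase, was highest in Ccrl2 with 7.89, against 6.27 in Trem2 and, below their ceilings, 6.18 in CD74 and 4.80 in CD163. The Ccrl2 level was 3.07-fold that in Trem2, at least 3.05-fold that in CD163 and at least 2.57-fold that in CD74. It was the only pathway gene at least 2-fold above all 3 other libraries in Ccrl2, where 2.61% of all measured genes met that rule, and after quantile normalization its margin over the CD74 ceiling was too small to meet it. Hk1, the housekeeping hexokinase, had 8.35 in Trem2, 8.17 in Ccrl2, 6.94 in CD74 and 6.68 in CD163, so that Ccrl2 and Trem2 lay close together above the other 2 on the deposited scale. After quantile normalization CD74 (7.61) was level with Ccrl2 (7.68) and Trem2 (7.76), and CD163 (6.94) was under 2-fold below them. Hk3, the hexokinase of myeloid cells, had 6.34 in Trem2 and 6.19 in Ccrl2 and was below the ceiling in CD163 (5.31) and CD74 (5.65).

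For phosphofructokinase the platelet-type subunit differed most. Pfkp had 8.65 in Trem2, 7.63 in Ccrl2, 6.92 in CD74 and 5.95 in CD163 (below the ceiling there), which makes Trem2 2.03-fold above Ccrl2, 3.32-fold above CD74 and at least 5.17-fold above CD163. After quantile normalization the first 2 of these differences were 0.75 and 0.43 log2 units, under 2-fold. The liver-type subunit Pfkl ran from 5.86, below the ceiling, in CD74 to 7.11 in Trem2, with 6.49 in Ccrl2 and 6.53 in CD163. The muscle-type subunit Pfkm stayed near background, with 5.84 in Ccrl2, 5.73 in Trem2, 6.28 in CD163 and 4.81 in CD74.

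In the later steps of the pathway, Ldha was the only gene highest in CD163 and lowest in Ccrl2 on the deposited scale. After quantile normalization Gapdh and Pgam1 also had their highest value in CD163 and their lowest in Ccrl2. Ldha, the lactate dehydrogenase subunit that favours lactate formation, had 11.08 in CD163, 10.66 in Trem2, 10.18 in CD74 and 9.06 in Ccrl2. It was the pathway gene with the clearest deficit in Ccrl2, whose level was 4.06-fold below CD163, 3.03-fold below Trem2 and 2.17-fold below CD74. Only 1.41% of the 7891 genes tested between Ccrl2 and CD163 had a larger deficit in Ccrl2, and 3.33% of those tested against Trem2. The sign held after quantile normalization, with deficits of 3.12, 1.39 and 3.05 log2 units against CD163, Trem2 and CD74. With each library centred on its median, the deficit against CD74 was 0.96 log2 units, just under 2-fold. Ldhb, the subunit typical of heart muscle, was below the ceiling everywhere, with 4.53 to 5.54.

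The enzymes between aldolase and enolase did not share 1 order of the libraries. Aldoa, the main aldolase outside liver, had 11.49 in Trem2, 10.52 in Ccrl2, 9.23 in CD163 and 8.80 in CD74. Its 6.45-fold difference between Trem2 and CD74 shrank to 0.51 log2 units after quantile normalization. Gapdh, often used as a reference gene, had 16.86 in Trem2, 16.61 in both Ccrl2 and CD163 and 14.86 in CD74. Quantile normalization put CD74 (16.38) above Ccrl2 (15.74) and Trem2 (16.00), so no direction between these libraries is shown for Gapdh. Pgk1, the first enzyme to return ATP, had 6.91 in Ccrl2 and 5.99 in Trem2 and was below the ceiling in CD163 (5.46) and CD74 (3.85). Tpi1 ran from 6.09 in CD74 to 7.30 in Trem2 and Pgam1 from 6.38 in CD74 to 7.10 in Trem2. Neither differed by 2-fold between any 2 libraries once values below a ceiling were set at it. Eno3, the muscle enolase, had 5.93 in Ccrl2, 6.06 in Trem2, 4.99 in CD163 and 5.92 in CD74, and was above the ceiling only in Ccrl2 and Trem2. Of 9 cardiomyocyte markers, 9, 8, 7 and 3 were above the ceiling in the same order of libraries, and the part of muscle RNA in the muscle-type enzymes was not tested. Aldoc, the brain-type aldolase, was below every ceiling.

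Pfkfb3 set the populations apart more than any other regulatory kinase. This bifunctional enzyme makes fructose 2,6-bisphosphate, the strongest activator of phosphofructokinase, and had 10.69 in Ccrl2, 10.57 in CD163, 8.59 in Trem2 and 5.68 in CD74 (below the ceiling there). Ccrl2 and CD163 were level on the deposited scale, both well above Trem2 (4.29-fold and 3.94-fold) and at least 17.9-fold and 16.4-fold above CD74. In the comparison of Ccrl2 with Trem2, 99.5% of genes tested had a smaller difference. After quantile normalization Pfkfb3 had 11.04 in CD163 and 9.93 in Ccrl2, so the order of these 2 libraries depends on scaling while both stay above Trem2 at 7.95. Pfkfb4, a hypoxia-inducible relative of Pfkfb3, had 5.96 in Ccrl2 and 5.90 in Trem2 and was below the ceiling in the other 2 libraries. Of the pyruvate dehydrogenase kinases, which hold pyruvate back from the mitochondrion, Pdk1 was above background only in Trem2 (6.49), with 5.39 in Ccrl2, 5.88 in CD74 and 3.85 in CD163. Pdk3 and Pdk4 did not pass any ceiling, with highest values of 5.09 and 5.14.

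Pfkfb3, Hk2 and Ldha thus gave 3 different orders of the libraries. Pfkfb3 paired Ccrl2 with CD163, Hk2 was highest in Ccrl2, and Ldha was lowest there. In the comparison of Ccrl2 with Trem2, the 2 libraries with the closest ceilings, all 3 differences kept their sign and stayed above 2-fold under both scalings (1.98, 1.32 and -1.39 log2 units after quantile normalization).

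**Figure D3:**
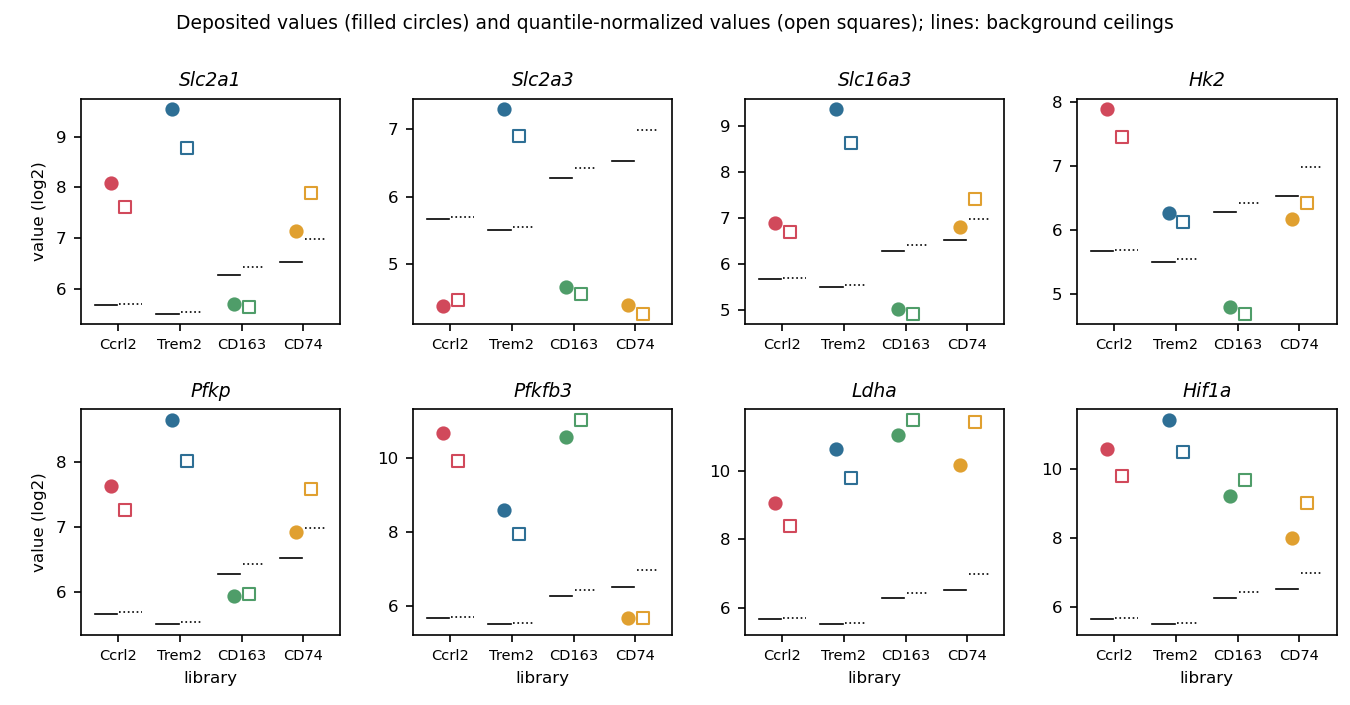
Levels of 8 genes in the 4 libraries as deposited (filled circles) and after quantile normalization (open squares), log2 scale, with each library's background ceiling as a solid or dotted line. Slc16a3 is highest in Trem2 and Ldha lowest in Ccrl2 on both scales, whereas Pfkfb3 is highest in Ccrl2 as deposited (10.69) and in CD163 after normalization (11.04).

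Transcripts of the HIF subunits were higher in Trem2 and Ccrl2 than in the other 2 libraries on the deposited scale. Hif1a had 11.41 in Trem2, 10.55 in Ccrl2, 9.22 in CD163 and 8.00 in CD74, above the ceiling in all 4. The Trem2 level was 10.6-fold that in CD74 and 4.56-fold that in CD163, and the Ccrl2 level was 5.86-fold and 2.51-fold those. Quantile normalization left 1.46 log2 units between Trem2 and CD74 and 0.80 between Trem2 and CD163, and put Ccrl2 (9.79) level with CD163 (9.68) and under 2-fold above CD74 (9.02). Epas1, which encodes HIF-2 alpha and is known for its expression in endothelium, had 7.33 in both Ccrl2 and Trem2 and was below the ceiling in CD163 (5.88) and CD74 (5.91). Cdh5, the endothelial cadherin, had 10.86, 11.31, 7.47 and 6.36 in Ccrl2, Trem2, CD163 and CD74, and the endothelial list had 5, 5, 4 and 2 of 7 genes above the ceiling. The part of endothelial RNA in the Epas1 values was not tested. Arnt had 9.09 in Ccrl2, 8.61 in Trem2, 7.60 in CD163 and 6.65 in CD74. After quantile normalization the 2-fold calls of Epas1 were lost, and Arnt kept only that of Ccrl2 over CD74 (1.26 log2 units).

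Among the oxygen sensors, Egln1, the main HIF prolyl hydroxylase, had 8.59 in Trem2, 8.58 in Ccrl2, 7.17 in CD163 and 5.95 in CD74 (below the ceiling there). Ccrl2 and Trem2 had nearly the same level and stood at least 4.14-fold and 4.17-fold above CD74. After quantile normalization the Trem2 level (7.95) was just under 2-fold above the CD74 ceiling. Egln3, a hydroxylase that is itself induced by HIF, was above background only in Trem2, at 5.85, with 4.85, 4.88 and 5.63 in Ccrl2, CD163 and CD74. Vhl had 6.03 in Ccrl2 and 5.64 in Trem2 and was below the ceiling in CD163 (4.84) and CD74 (4.86). No gene of the HIF subunits and oxygen sensors met the 2-fold rule between Ccrl2 and Trem2. The Egln3 values there differ by 1.00 log2 units, but the one in Ccrl2 is below its ceiling, so that only a 1.13-fold difference is shown.

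The other HIF targets lay low, and only Ero1a differed by 2-fold between any 2 libraries once values below a ceiling were set at it. Ero1a, an oxidase of the endoplasmic reticulum that the gene list names Ero1l, had 7.53 in Trem2, 6.69 in Ccrl2, 5.78 in CD163 and 5.84 in CD74, the last 2 below the ceiling. Trem2 exceeded CD163 at least 2.38-fold and CD74 at least 2-fold, and neither held as a 2-fold call after quantile normalization. Bnip3, a mitophagy receptor, ran from 5.99 in Ccrl2 to 6.39 in CD163, and Higd1a, a mitochondrial hypoxia protein, from 6.26 in CD74 to 6.80 in CD163. Ddit4, an inhibitor of mTOR signalling, and Ankrd37, an ankyrin repeat protein, were above background only in Trem2, the library with the lowest ceiling, at 6.21 and 5.89. In Ccrl2, CD163 and CD74, Ddit4 had 5.56, 5.04 and 5.15 and Ankrd37 had 4.94, 5.56 and 5.53.

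Over the 6 pairs of libraries, the pathway genes were counted beside all genes. A gene was tested where it was above the ceiling of at least 1 of the 2 libraries, and was called where the higher value was above its ceiling and at least 1 log2 unit above both the other value and the other ceiling. Genes that pass through the library where they are high are favoured by this filter, so the counts are read only beside those over all genes. Between Ccrl2 and Trem2, 2 of 31 tested pathway genes were higher in Ccrl2 (Hk2 and Pfkfb3, 6.45%, against 5.43% of all genes tested) and 5 were lower (Slc2a1, Slc2a3, Slc16a3, Pfkp and Ldha, 16.1%, against 7.92%). Their median difference was -0.27, and that of all 8773 genes was -0.08. Of these 7 calls, 6 remained after quantile normalization, the exception being Pfkp.

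Between Ccrl2 and CD163, 9 of 25 were higher in Ccrl2 (36.0%, against 28.1% of all genes) and 1, Ldha, was lower (4.0%, against 5.03%), with medians of 0.94 and 0.69. The transporters and hexose phosphate genes gave 4 of the 9 (Slc2a1, Hk1, Hk2 and Pfkp), the HIF group another 4 (Hif1a, Epas1, Arnt and Egln1) and the lower enzymes 1 (Aldoa). After quantile normalization only Slc2a1, Hk2 and Ldha of these 10 were called. Between Trem2 and CD163, 11 of 31 were higher in Trem2 (35.5%, against 27.6%) and 1, Pfkfb3, was lower (3.23%, against 6.07%), with medians of 1.03 and 0.69. Quantile normalization kept 4 of these 12, namely Slc2a1, Slc16a3, Pfkp and Pfkfb3.

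In the comparisons with CD74, the shares of pathway genes higher in the other library were close to those of all genes, and the shares lower were below them. Between Ccrl2 and CD74, 8 of 25 were higher in Ccrl2 (32.0%, against 32.0%) and 1, Ldha, was lower (4.0%, against 7.80%), with medians of 0.94 and 0.96. Between Trem2 and CD74, 11 of 31 were higher in Trem2 (35.5%, against 32.6%) and 0 lower (against 7.62%), with medians of 1.25 and 1.01. Between CD163 and CD74, 3 of 16 were higher in CD163 (18.8%, against 19.3%), namely Hif1a, Gapdh and Pfkfb3, and 0 were lower (against 9.98%), with medians of 0.48 and 0.47. After quantile normalization 4 of 9, 2 of 11 and 1 of 3 of these calls remained. Pfkfb3 was the call that remained between CD163 and CD74. The 6 comparisons share libraries and are not independent of each other.

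Quantile normalization also moved the split over all genes. The direction of some differences depends on it, including some above 2-fold. In Ccrl2 minus CD74, Gapdh went from 1.75 to -0.64 and Aldoa from 1.72 to -0.29. Of the 52 calls of pathway genes over the 6 pairs, 48 kept their sign. The median over all genes went from 0.69 to 0.19 for Ccrl2 minus CD163, from 0.96 to 0.36 for Ccrl2 minus CD74, from 0.69 to 0.20 for Trem2 minus CD163, from 1.01 to 0.38 for Trem2 minus CD74 and from 0.47 to 0.21 for CD163 minus CD74. All genes called higher and lower in Ccrl2 against CD163 were 2214 and 397 as deposited and 746 and 1050 after normalization. The same counts were 2529 and 616 against 954 and 1605 for Ccrl2 and CD74, 2354 and 518 against 855 and 1277 for Trem2 and CD163, 2782 and 649 against 905 and 1543 for Trem2 and CD74, and 1130 and 583 against 929 and 1238 for CD163 and CD74. The pathway genes then gave 2 higher and 2 lower of 25 for Ccrl2 and CD163, and 3 and 1 of 25 for Ccrl2 and CD74. They gave 3 and 2 of 31 for Trem2 and CD163, 2 and 1 of 31 for Trem2 and CD74, and 1 and 2 of 16 for CD163 and CD74. In each of these pairs both shares were below those of all genes, as with 6.45% and 3.23% against 10.6% and 18.1% for Trem2 and CD74. The shares higher in Ccrl2 than in CD74 and in Trem2 than in CD163 were only just below. Between Ccrl2 and Trem2 both shares were above those of all genes, 6.45% and 12.9% against 3.83% and 4.23%.

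**Figure D4:**
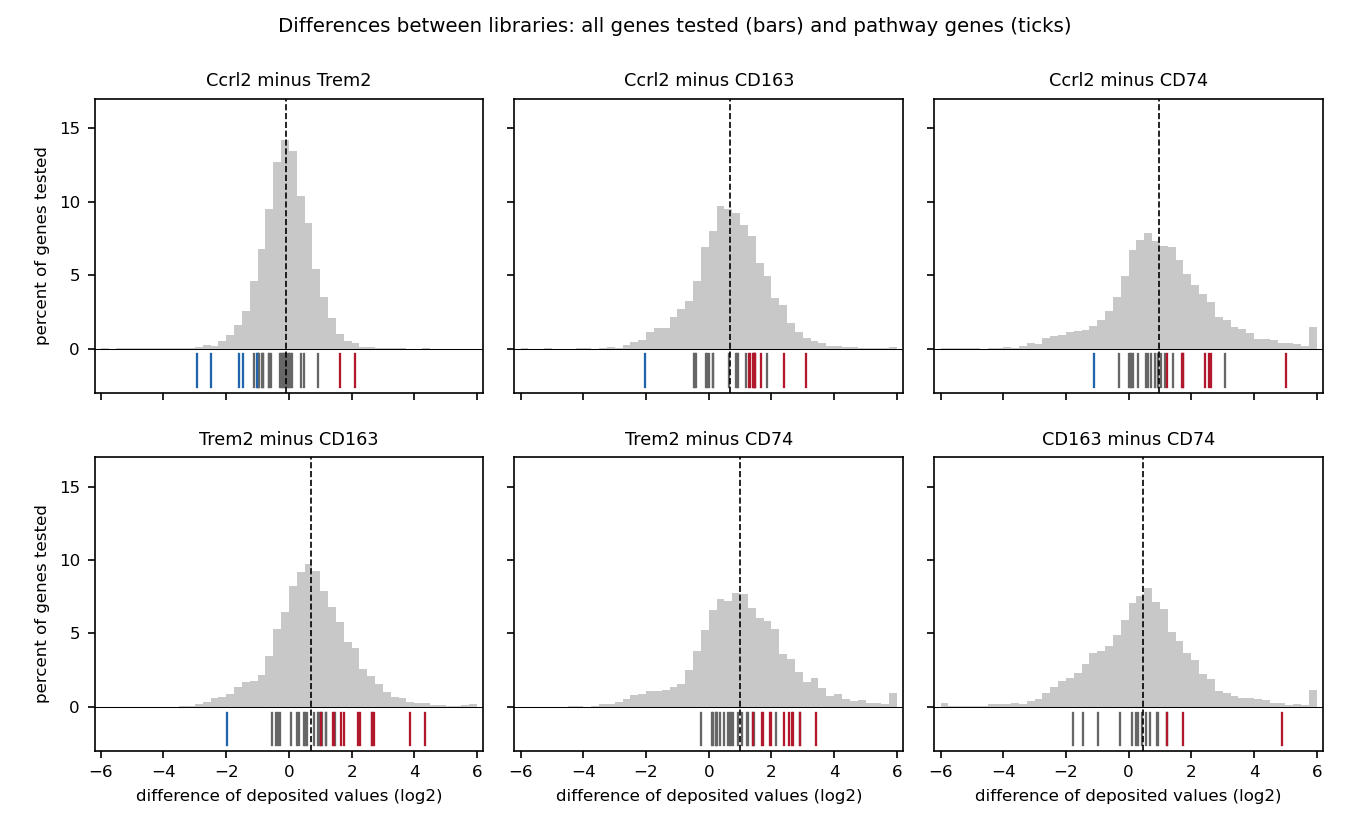
Differences between 2 libraries in deposited log2 values, 1 panel per pair. Bars give the percent of all genes tested (values beyond 6 placed at the edge), the dashed line their median, and ticks the pathway genes tested (red where called higher in the first library, blue where called lower, grey otherwise). The dashed line lies at -0.08 for Ccrl2 minus Trem2 and between 0.47 and 1.01 in the other panels, and the ticks for the most part spread around it.

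A rule asking for a 2-fold excess over all 3 other libraries left 4 genes. These were Hk2 in Ccrl2 and Slc2a1, Slc16a3 and Pfkp in Trem2, the last 3 against 3.85% of all measured genes. None met it in CD163 or CD74, where 0.835% and 1.78% of all genes did. After quantile normalization Slc16a3 alone of the 4 kept the excess, and Pfkfb3 gained it in CD163. The shares of all measured genes that then met the rule were 0.792% in Trem2, 2.64% in CD163 and 0.835% in Ccrl2. Without the Ccrl2 library 9 genes met the rule in Trem2, where 20.3% of all genes then did. Without the Trem2 library 6 met it in Ccrl2, where 20.1% did, and without the CD163 library 2 did, Hk2 and Pfkfb3, against 3.38%. Without the Ccrl2 library Pfkfb3 also met it in CD163 (1.48%).

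The promoters of these genes were searched for the core of the HIF binding site, ACGTG or GCGTG on either strand, in RefSeq promoter windows of the GRCm38.p6 assembly that span 250 bases before to 50 after a start. A CACGTG run counts as ACGTG on both strands. Windows were matched by gene number for 34 of the 36 genes. Of their 44 windows, 26 held ACGTG (59.1%), against 24.7% of 9630 windows of genes above a ceiling and 19.6% of all 32851 windows. GCGTG was in 63.6%, against 47.5% and 32.4%. In the 38 windows of pathway genes above a ceiling, ACGTG was in 60.5% and GCGTG in 57.9%. The G and C content was 62.0% in the 44 windows, 59.4% in those of genes above a ceiling and 53.8% in all. These shares are descriptions that were not adjusted for it. Several of these genes are textbook HIF targets, and a match is a run of letters and not a shown site.

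The stretches below were chosen after the values were seen. They come from genes described above that have a match upstream of the start with its flanks. That every stretch carries the core letters follows from this choice and says nothing about the libraries. Each stretch is written 5′ to 3′ on the gene's strand, with 1 match to the core in capitals. Slc2a1 was highest in Trem2, Hk2 in Ccrl2, and Ldha in CD163, and Hif1a was highest in Trem2 and lowest in CD74.
Slc2a1, chr4:119108684-119108738, plus strand: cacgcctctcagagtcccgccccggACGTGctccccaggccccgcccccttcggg
Hk2, chr6:82774477-82774531, minus strand: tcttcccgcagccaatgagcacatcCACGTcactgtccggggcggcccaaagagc
Pfkfb3, chr2:11502113-11502167, minus strand: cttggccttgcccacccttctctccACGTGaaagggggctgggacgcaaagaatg
Pfkfb3, second start, chr2:11553960-11554014, minus strand: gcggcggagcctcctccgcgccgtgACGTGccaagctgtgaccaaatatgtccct
Ldha, chr7:46845635-46845689, plus strand: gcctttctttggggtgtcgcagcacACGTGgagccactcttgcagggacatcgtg
Ldha, chr7:46845732-46845786, plus strand: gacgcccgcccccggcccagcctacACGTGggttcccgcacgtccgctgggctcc
Hif1a, chr12:73907708-73907762, plus strand: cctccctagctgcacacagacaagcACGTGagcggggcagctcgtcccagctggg
Pgk1, chrX:106186925-106186979, plus strand: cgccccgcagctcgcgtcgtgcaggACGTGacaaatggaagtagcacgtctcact
Egln1, chr8:124949293-124949347, minus strand: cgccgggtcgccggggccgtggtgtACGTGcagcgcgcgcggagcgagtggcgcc

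The match in Slc2a1 begins 36 bases before the start and that in Hk2 begins 52 before it. The Pfkfb3 matches begin 52 and 60 bases before 2 different starts. In Ldha the 2 stretches come from 1 window, with matches 144 and 47 bases before the start. Each is part of a CACGTG run, and the other Ldha window held 0 matches to ACGTG. Slc16a3 held 2 matches, and Arnt and Vhl held 0 to ACGTG.

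Other genes of the pathway were counted in the same way. A list of 67 further transporters, enzymes and HIF-related genes had a probe set for 59. Between Ccrl2 and Trem2, 2 of 31 tested were higher in Ccrl2 and 4 lower, with a median of -0.18. The all-gene shares for this pair are 5.43% and 7.92%, and those of the list 6.45% and 12.9%. Against CD163, 8 of 28 were higher in Ccrl2 (28.6%, against 28.1% of all genes) and 2 lower (7.14%, against 5.03%). Against CD74, 11 of 27 were higher in Ccrl2 (40.7%, against 32.0%) and 1 lower (3.7%, against 7.80%). In Trem2, 8 of 31 were higher than in CD163 (25.8%, against 27.6%) and 2 lower (6.45%, against 6.07%). Another comparison, with CD74, had 12 of 30 higher in Trem2 (40.0%, against 32.6%) and 0 lower (against 7.62%). Between CD163 and CD74, 8 of 21 were higher in CD163 (38.1%, against 19.3% of all genes and 18.8% of the 16 pathway genes tested) and 2 lower (9.52%, against 9.98% of all genes). Quantile normalization shifted several of these splits toward lower, as it did for all genes. It gave 0 higher and 4 lower for Ccrl2 and CD163 (0 and 14.3%, against 9.45% and 13.3% of all genes). For Ccrl2 and CD74 it gave 6 and 5 (22.2% and 18.5%, against 12.1% and 20.3%). For Trem2 and CD163 it gave 2 and 7 (6.45% and 22.6%, against 855 and 1277 of 8532 genes). For Trem2 and CD74 it gave 5 and 4 (16.7% and 13.3%, against 10.6% and 18.1%). Between Ccrl2 and Trem2 it left 1 higher and 2 lower (3.23% and 6.45%, against 3.83% and 4.23%). It left 8 higher and 3 lower for CD163 and CD74 (38.1% higher, against 15.9% of all genes).

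Bsg, the chaperone that brings lactate transporters to the membrane, had 13.91 in Ccrl2, 13.20 in Trem2, 12.47 in CD163 and 10.19 in CD74. After quantile normalization Bsg was higher in CD163 (12.85) than in Trem2 (12.29). Slc16a6, a transporter related to Slc16a3, had 9.90 in Trem2, 8.20 in Ccrl2, 7.19 in CD163 and 6.30 in CD74 (below the ceiling there). Slc2a13, a proton-coupled inositol transporter, was above background only in CD163, at 7.39. Slc16a7, the monocarboxylate transporter MCT2, had 7.95 in Ccrl2, 8.34 in Trem2, 6.87 in CD163 and 3.86 in CD74.

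Pkm, the pyruvate kinase that closes glycolysis, had 12.19 in Trem2, 11.34 in Ccrl2, 10.88 in CD74 and 10.06 in CD163. After quantile normalization Pkm was highest in CD74, at 12.22, with 11.27 in Trem2, 10.53 in CD163 and 10.52 in Ccrl2. Pdhb, a subunit of pyruvate dehydrogenase, had 9.70 in Ccrl2, 9.58 in Trem2, 8.00 in CD163 and 5.40 in CD74 (below the ceiling there). Dld, the subunit that pyruvate dehydrogenase shares with other complexes, had 9.14, 9.11, 8.62 and 7.16 in the same order. After quantile normalization Dld was highest in CD163, at 9.11, with 8.48 in Ccrl2 and 8.41 in Trem2. Pdk2, the pyruvate dehydrogenase kinase outside the 40 genes, had 8.01 in Ccrl2, 7.01 in Trem2, 6.52 in CD163 and 5.74 in CD74, the last below the ceiling.

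Of the further HIF-related genes, Plin2, which coats lipid droplets, had 11.74 in Ccrl2, 11.20 in CD163, 10.61 in Trem2 and 6.22 in CD74 (below the ceiling there). P4ha1, a collagen prolyl hydroxylase, had 10.90 in Ccrl2, 10.84 in CD163, 10.22 in Trem2 and 7.18 in CD74. For both, the 2 highest values were in Ccrl2 and CD163, and the margin of CD163 over Trem2 was under 2-fold on the deposited scale. After quantile normalization both were highest in CD163, at 11.65 for Plin2 and 11.29 for P4ha1, with 9.74 and 9.37 in Trem2. Cited2, which limits HIF activity, had 18.94, 19.12, 18.05 and 12.63 in Ccrl2, Trem2, CD163 and CD74, near the top of the scale at 19.93. Bhlhe40, a transcriptional repressor, was highest in CD74, with 12.19 there, 11.62 in Trem2, 9.99 in Ccrl2 and 7.92 in CD163.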

How the data were processed

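RNA of each sorted population was reverse transcribed, amplified with a small-input whole-transcript kit and hybridised to 1 array, per the labels' protocols. The authors background-corrected, normalized and summarised the arrays by robust multichip average, per the labels' protocols. GeneSpring is named there for later steps, and Affymetrix Expression Console in the submitters' processing notes. The deposited values are log2 levels from 2.97 to 19.93, a scale read from the values. Columns did not share a distribution, with settings and probe build not given in the sources used here.

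Probe sets were named from the platform annotation. Of 28846, 6640 were controls, 19572 had 1 symbol, 0 several and 2634 none. The probe set with the highest mean was used for 55 genes with several, none of them a pathway gene. Ero1l was found as Ero1a by its gene number. Differences and counts were computed with Python 3.11.15, pandas 2.3.3 and numpy 2.4.6. A fold against a value below its ceiling uses that ceiling and is written "at least". The calling rule was tested on simulated data in which all libraries shared the same profile. Only genes with high values were changed there, by more than the threshold. That setting does not cover libraries with unequal distributions, values near a ceiling or differences near 2-fold. Alternatives were quantile normalization, median centring, no ceiling, a 99th percentile ceiling, a 1.5-fold threshold, the mean over probe sets and leaving out libraries. Named were all pathway genes, up to 4 further genes per list with the largest difference between 2 libraries (values below a ceiling set at it), and up to 3 leading markers. The genes and lists were chosen with earlier results of these data known. Precision is limited by the number of arrays, 1 per population.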

Additional observations from a re-analysis of the deposited data

How the results depend on the processing

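Of 52 calls over the 6 pairs, 20 were the same call after quantile normalization, 51 after median centring and 0 turned to the opposite call. Another 5 were called only after quantile normalization. Of 4 calls that changed sign under it, the differences became -0.29 for Aldoa and -0.64 for Gapdh in Ccrl2 minus CD74, -0.38 for Gapdh in Trem2 minus CD74 and -0.04 for Arnt in Trem2 minus CD163. The counts under quantile normalization were 2 higher and 2 lower in Ccrl2 against CD163, 3 higher in Ccrl2 against CD74, 3 higher and 2 lower in Trem2 against CD163, 2 higher and 1 lower in Trem2 against CD74, and 1 higher and 2 lower in CD163 against CD74. The counts over all genes, and how the shares compare, are given above. The rule of a 2-fold excess over every other library then held for 0 genes in Ccrl2, against 0.835% of all genes. It held for 1 in Trem2 (Slc16a3, against 0.792%) and 1 in CD163 (Pfkfb3, against 2.64%). Highest in CD74 were 2 genes, against 28.0% of all genes. Median centring left 0 genes lower in Ccrl2 than in CD74. Without the ceiling, 8 were lower in Ccrl2 than in Trem2, 2 lower in Ccrl2 than in CD74, 17 higher in Trem2 than in CD163, 18 higher in Trem2 than in CD74, and 6 higher and 4 lower in CD163 than in CD74. The 99th percentile ceiling left 0 genes with an excess in Ccrl2. The 1.5-fold threshold gave 11 lower in Ccrl2 than in Trem2, 6 higher and 2 lower in CD163 than in CD74, and 7 with an excess in Trem2. Shares over all genes were not computed for median centring, no ceiling, the 99th percentile ceiling or the 1.5-fold threshold. Counts under these settings show only how far the pathway counts move. Leaving out 1 library gave 1 to 6 genes with an excess in Ccrl2, 3 to 9 in Trem2 and 0 to 1 in CD163, and 6 to 18 highest in Ccrl2. The mean over probe sets changed no count. The choice of leaving libraries out of the highest-library counts, and their rescaling, was made after seeing the data. The cause of these shifts was not tested. No paired analysis was possible because each population has 1 library and the result comes from no test. The high ceilings of CD163 and CD74 limit what can be seen of genes at low levels there.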

Other observations

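A pair of further genes of the pathway lists did not follow the general order of the libraries and are named after their values were seen. Rpia, which makes ribose phosphate in the pentose phosphate pathway, had 8.14 in CD163, 7.42 in CD74, 7.13 in Trem2 and 6.71 in Ccrl2, an order in which Ccrl2 was lowest and CD163 highest, as for Ldha. Bnip3l, a mitophagy receptor related to Bnip3, had 8.86 in Ccrl2, 8.82 in Trem2, 8.80 in CD74 and 7.65 in CD163. After quantile normalization Bnip3l was highest in CD74, at 10.03, with 8.07 to 8.25 in the other libraries. Pgd, an oxidative enzyme of the pentose phosphate pathway, lay between 7.53 and 8.16 in the 4 libraries as deposited. After quantile normalization it ran from 7.46 in Ccrl2 to 8.65 in CD74.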
